A study of Mus musculus with 6 samples.

Results

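Of 3080 REST peaks mapped in mouse E14 embryonic stem cells, 1676 (54.4%, exact 95% Clopper-Pearson interval 52.6 to 56.2%) had no peak of the cofactors RCOR1, RCOR2, RCOR3, SIN3A or SIN3B with its midpoint under 400 bp from the REST midpoint. These REST peaks are described here, and the remaining 1404 serve for comparison. The REST list held 3104 peaks. A crowded stretch of chromosome X was left out with its 24 REST peaks, chrX:165314091-165352151, all of which had a cofactor peak nearer than 400 bp. The members were chosen from the measured peak positions, so that the absence of a cofactor peak is a selection and not a result.

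REST is a zinc finger repressor that binds a DNA element called RE1 and keeps neuronal genes silent in cells that are not neurons. Repression runs through cofactors. The CoREST proteins RCOR1, RCOR2 and RCOR3 link REST to the histone demethylase LSD1 and to histone deacetylases, while SIN3A and SIN3B are scaffolds that carry histone deacetylases to the amino-terminal part of REST. A REST peak without a cofactor peak is thus a position in the REST list at which none of the profiled partners reached its own list.

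Chromatin immunoprecipitation and sequencing (ChIP-seq) was done on E14, a mouse embryonic stem cell line, at passages 15 to 18, with 1 library for each of the 6 proteins. For REST and SIN3A the antibody recognised the cells' own protein. The other 4 proteins were precipitated with a V5 antibody from stable E14 lines that expressed a tagged copy at a low level in addition to the cells' own protein (the SIN3B transgene is labelled VG, its antibody V5). No group carried a drug treatment or a deletion in the labels. The labels name no marker measurement and the lists hold binding sites only, so the identity of the cells was not checked. The cofactor lists differed widely in length: SIN3B had 5318 peaks, RCOR3 3744, SIN3A 1314, RCOR2 459 and RCOR1 84. With 1 library per protein there was no replicate error. The intervals cover counting error over peaks only, peaks of 1 library are not replicates, and no p-value was computed. Read depth is unknown, so a cofactor absent from a list was not detected under the authors' threshold and cannot be called absent from the site. The REST peaks too come from 1 library with an unknown control and threshold. Whether the weak ones, near the lowest listed score of 8, are sites of REST binding was not tested. Positions are on mouse build mm8 as deposited. Neither a genome nor a gene annotation of that build was used, so peaks are given by position and no sequence or gene is named.

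REST peaks without a cofactor were the weak end of the REST list. The score that the authors gave each peak, which has no stated unit and is used here to rank and match peaks within the REST list, had a median of 13.63 at these peaks (quartiles 10.47 and 20.15, range 8 to 87.12). The other REST peaks had a median of 42.08 (quartiles 26.37 and 65.86, range 8 to 1121.33). REST peaks with RCOR3 or SIN3B as their only cofactor, 542 in number, lay in between with a median of 29.24. The ranges overlapped over the whole span of the peaks without a cofactor. Of the 1676 peaks, 25.3% scored 20 or more, 7.94% scored 30 or more, and 14 (0.835%) scored 50 or more.

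The share without a cofactor was high over the lower scores and far smaller above them. In score decile 1, from 8 to 9.48, it was 88.6% (311 of 351, 84.8 to 91.7%), and in decile 4, from 13.48 to 16.59, it was still 83.7% (292 of 349, 79.4 to 87.4%). It was 61.2% in decile 6 (186 of 304, 55.5 to 66.7%), 34.4% in decile 7 (103 of 299, 29.1 to 40.1%) and 18.4% in decile 8 (56 of 305, 14.2 to 23.2%). Most of the change thus lay between deciles 4 and 8, at scores of 16.79 to 48.01. Decile 9 held 17 such peaks among 300 (5.67%, 3.34 to 8.92%), and decile 10, from 69.34 upwards, held 1 among 308 (0.325%, 0.00822 to 1.80%).

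**Figure D1:**
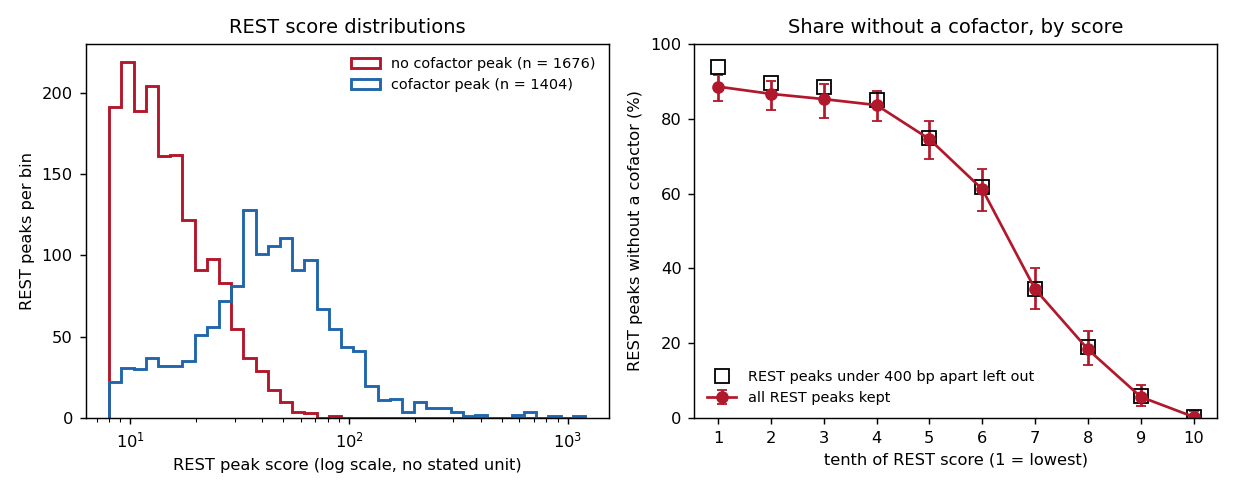
Left, number of REST peaks by REST score (log axis, no stated unit) for peaks without a cofactor (red) and with one (blue). Right, percent of REST peaks without a cofactor in each decile of REST score, with exact 95% intervals (red), and the same with REST peaks under 400 bp apart left out (open squares). The share stays above 80% up to decile 4 and reaches 0.325% in decile 10.

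Where RCOR3 or SIN3B did have a peak at REST, its own score was lowest, in the median, in the middle of the REST scores. Where several peaks of 1 cofactor lay under 400 bp away, the highest score was taken. Of the 40 REST peaks of decile 1 with a cofactor, 20 had another REST peak under 400 bp away. Such a pair can share 1 cofactor peak, and medians without such pairs were not computed. In decile 1 the medians were 18.4 for the RCOR3 peaks and 17.41 for the SIN3B peaks. From decile 2 to decile 7 they stayed between 11.71 and 12.97 for RCOR3 and between 11.61 and 13.26 for SIN3B, over a range in which the share without a cofactor went from 86.7 to 34.4%. In decile 7, the median score was 12.55 for the RCOR3 peaks at 110 REST peaks and 13.26 for the SIN3B peaks at 156 REST peaks, whereas the lowest scores in those lists were 9.2 and 9.12. In decile 10 the medians were 25.09 at 297 REST peaks and 26.53 at 302. These medians cover only cofactor peaks that passed the threshold of their list. Over the whole lists the medians were 12.55 for RCOR3 and 13.26 for SIN3B. The medians by decile therefore cannot show whether cofactor signal changed along with the share without a cofactor. How many cofactor sites lay just under the thresholds of the lists was not tested.

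The longest 2 cofactor lists moved the count most. Without the SIN3B list, 2031 REST peaks had no cofactor, and without the RCOR3 list 1863 had none. Leaving out SIN3A gave 1689, RCOR2 1678 and RCOR1 the same 1676. Limiting each cofactor list to its better-scoring 50% raised the count to 1992. The limit of 400 bp mattered little for this count, though not for the comparison of REST neighbours given below. Of the other REST peaks, 91.5% (1284 of 1404) had a cofactor midpoint within 100 bp and 54 had their nearest one over 200 bp away. Counting only cofactor midpoints under 200 bp away gave 1732 REST peaks without a cofactor, under 1000 bp 1644 and under 5000 bp 1540.

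At the limit itself, the peaks just outside and just inside it looked alike in position. The 3 nearest outside were chr5:112959511-112959551 and chr19:45866851-45866891, each 400 bp from the nearest cofactor midpoint, and chr17:87706511-87706551 at 410 bp. Their scores were 8.89, 16 and 10.08, and each lay 400 bp from a higher REST peak that had cofactors, with scores of 120.31, 85.34 and 28.05. The 3 nearest inside were chr15:72517591-72517651 at 390 bp and chr2:21285451-21285771 and chr19:10469871-10470111 at 360 bp, with scores of 8.89, 10.67 and 26.08. They too lay 360 to 400 bp from higher REST peaks, which scored 104.61, 118.53 and 113.79. Of the 1676 peaks, 32 (1.91%, 1.31 to 2.68%) had a cofactor midpoint at 400 bp or more but under 1000 bp, and for 16 of these 32 the nearest such cofactor peak was itself at another REST peak.

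The 10 highest-scoring REST peaks without a cofactor scored from 54.53 to 87.12, a range at or above which 488 other REST peaks lay. The strongest was chr12:102951731-102951771 with a score of 87.12. Its nearest RCOR3 and SIN3B midpoints were 4.56 kb away and its nearest SIN3A midpoint 4.57 kb away. They stood at another REST peak 4.52 kb away, whose score of 46.23 was the lower of the pair. The second, chr6:113809151-113809191, scored 65.19 and had SIN3B at 9.08 kb, SIN3A at 9.15 kb, RCOR1 at 9.19 kb and RCOR3 at 9.25 kb, next to a REST peak with a score of 115.77 that lay 9.16 kb away. In both cases a cofactor-bearing REST site stood close by, and in the first the cofactors were listed at the weaker of the neighbouring REST peaks.

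The other 8 of the 10 had no cofactor within 10 kb. The third, chr7:33252291-33252611, scored 64.6 and was 320 bp wide. Its nearest cofactor was SIN3B at 625 kb, and RCOR3 followed at 626 kb. chr9:48966811-48966851, with a score of 64.01, had RCOR3 and SIN3B both at 127 kb. chr10:111827611-111827651 and chr9:74300211-74300271 both scored 61.64, and SIN3B was nearest to each, at 263 and 344 kb. chr2:164168011-164168051 scored 59.86 and had SIN3B at 15.9 kb, and chr7:24436551-24436591 scored 55.12 and had RCOR3 at 40.9 kb. The last of the 10 both scored 54.53, with RCOR3 at 918 kb from chr6:68728951-68728991 and RCOR2 at 143 kb from chr7:135292191-135292231. Over the 10 peaks the distance to the nearest cofactor ran from 4.56 to 918 kb with a median of 135 kb.

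**Figure D2:**
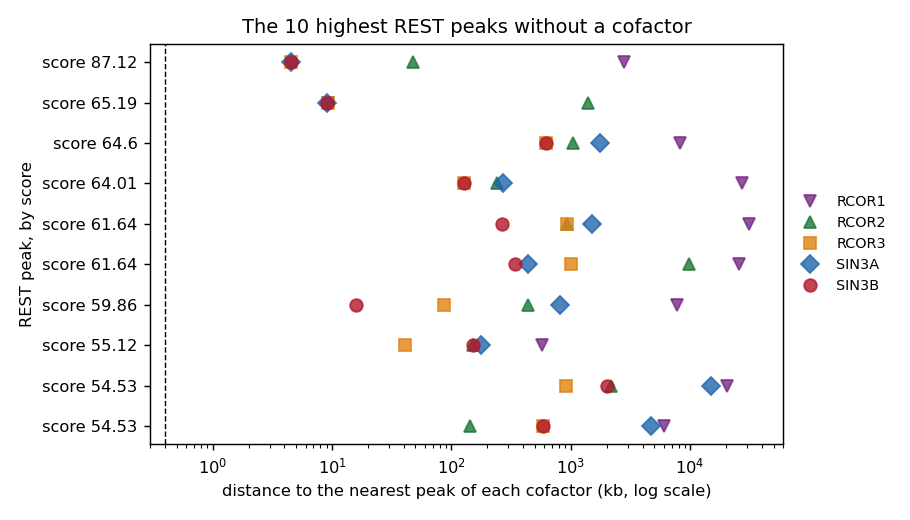
Distance from each of the 10 highest-scoring REST peaks without a cofactor (vertical axis, labelled by REST score) to the nearest peak of each cofactor (kb, log axis). The dashed line is the limit of 400 bp. The upper 2 peaks have SIN3B, RCOR3 and SIN3A at 4.56 to 9.25 kb, and the other 8 have no cofactor within 10 kb.

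Across all 1676 peaks, most lay far from any cofactor. The nearest cofactor midpoint was at 400 bp to 10 kb for 244 (14.6%, 12.9 to 16.3%), at 10 to 50 kb for 433 (25.8%, 23.8 to 28.0%), at 100 to 500 kb for 531 (31.7%, 29.5 to 34.0%) and at 1000 kb or more for 109 (6.50%, 5.37 to 7.79%). The nearest peak belonged to SIN3B for 855 of the 1675 with a cofactor on their chromosome (51.0%), to RCOR3 for 623 (37.2%), to SIN3A for 126 (7.52%), to RCOR2 for 64 (3.82%) and to RCOR1 for 7 (0.418%). Ties, found at 51 peaks, went to the first of the lists in the order RCOR1 to SIN3B. For comparison, SIN3B contributes 48.7% of all cofactor peaks, RCOR3 34.3%, SIN3A 12.0%, RCOR2 4.20% and RCOR1 0.769%. With ties counted this way, SIN3A, RCOR2 and RCOR1 were nearest less often than their share of cofactor peaks, and SIN3B and RCOR3 more often. This difference was not tested. Shares without the 51 tied peaks were not computed, so whether RCOR3 would still stand above its share is not known. The nearest cofactor peak was itself at a REST peak for 457 of the 1675 (27.3%, 25.2 to 29.5%). For the other REST peaks, with cofactor peaks under 400 bp left out and scores unmatched, the share was similar (413 of 1404, 29.4%, 27.0 to 31.9%).

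The farthest ones stood in long stretches without a cofactor. The peak chrX:57699751-57699791, with a score of 23.71, lay 9038 kb from SIN3B, its nearest cofactor, and chr14:92709271-92709311, with a score of 13.04, lay 5213 kb from SIN3B. chr6:77910351-77910391, with the higher score of 35.56, was 5152 kb from RCOR3. The only REST peak on chromosome Y, chrY:2682851-2682891 with a score of 11.26, had no cofactor peak on its chromosome at all.

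REST peaks without a cofactor lay in surroundings poorer in cofactor peaks than other REST peaks of like score. To compare them, the other REST peaks were weighted to the same 20 bins of REST score, and cofactor midpoints under 400 bp, which define the sets, were left out on both sides. Deciles 1 to 3 held 804 of the 1676 members but only 120 of the 1404 others, so few weak peaks carried much of the matched values. Of these 120, 41 had another REST peak under 400 bp away. A cofactor peak at 400 bp to 10 kb was present for 14.6% of the peaks without a cofactor. For the others the share was 24.6% at matched score and 19.4% unmatched. The matched difference was -10.1 percentage points (95% interval -15.1 to -5.11). The median distance was 78.5 kb against 35.5 kb, or 2.21 times as far. The direction was the same against the 542 peaks with RCOR3 or SIN3B alone, where the difference was -10.1 percentage points (-17.0 to -3.15) and the medians 78.5 and 39.0 kb. Against these 542, the difference at 400 bp to 5 kb was -3.95, with an interval that included 0 (-9.45 to 1.54). At 400 bp to 50 kb it was -13.3 (-20.5 to -6.05). Against all other REST peaks, with cofactor peaks nearer than 2 kb also left out, the shares were 11.9 and 19.5%, a difference of -7.59 (-12.2 to -2.94). With the better-scoring 50% of each cofactor list the difference was -5.17 (-10.2 to -0.120). Among the better-scoring 50% of REST peaks, where 384 had no cofactor, the shares were 13.3 and 17.3% and the interval of the difference, -4.05, included 0 (-9.29 to 1.20). This distance is read from the same cofactor lists that the selection used and is thus not fully independent of it.

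**Figure D3:**
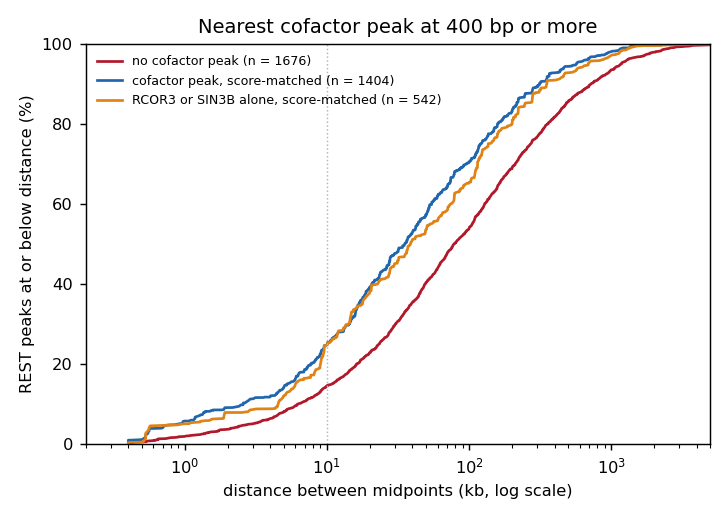
Cumulative percent of REST peaks (vertical axis) by distance to the nearest cofactor midpoint at 400 bp or more (kb, log axis), for REST peaks without a cofactor (red) and, weighted to the same REST scores, for other REST peaks (blue) and those with RCOR3 or SIN3B alone (orange). The dotted line marks 10 kb, where red stands at 14.6% and blue at 24.6%.

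The share of peaks with another REST peak at 400 bp to 10 kb did not differ detectably between the sets. It was 9.19% without a cofactor and 12.1% for the others at matched score (difference -2.95, -6.89 to 0.997). Taken whole, 10.4% of the peaks without a cofactor (174 of 1676, 8.96 to 11.9%) had another REST peak within 10 kb, against 28.7% of the others at matched score, a difference of -18.3 percentage points (-23.3 to -13.4). The medians to the nearest other REST peak were 166 and 69.4 kb. The difference in shares rested on REST peaks under 400 bp apart, which the selection itself bears on, since 2 such peaks can share 1 cofactor peak. Only 22 peaks without a cofactor (1.31%, 0.824 to 1.98%) had another REST peak under 400 bp away, against 20.5% of the others at matched score. With all such close REST peaks left out, the shares within 10 kb were 9.19 and 10.2% (difference -1.06, -5.63 to 3.51) and the medians 169 and 158 kb, a ratio of 1.07. Among the better-scoring 50% of REST peaks, also without close ones, the shares were 10 and 10.2% (difference -0.168, -4.69 to 4.35), but the medians stood further apart at 165 and 100.3 kb, a ratio of 1.65 that has no interval. Over all scores and without close REST peaks, the shares with a cofactor peak at 400 bp to 10 kb still differed. They were 14.6 against 26.6% (difference -11.9, -18.1 to -5.73). Against the peaks with RCOR3 or SIN3B alone, the shares with a REST peak within 10 kb without close REST peaks were 9.19 and 9.43% (difference -0.245, -5.86 to 5.37).

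**Figure D4:**
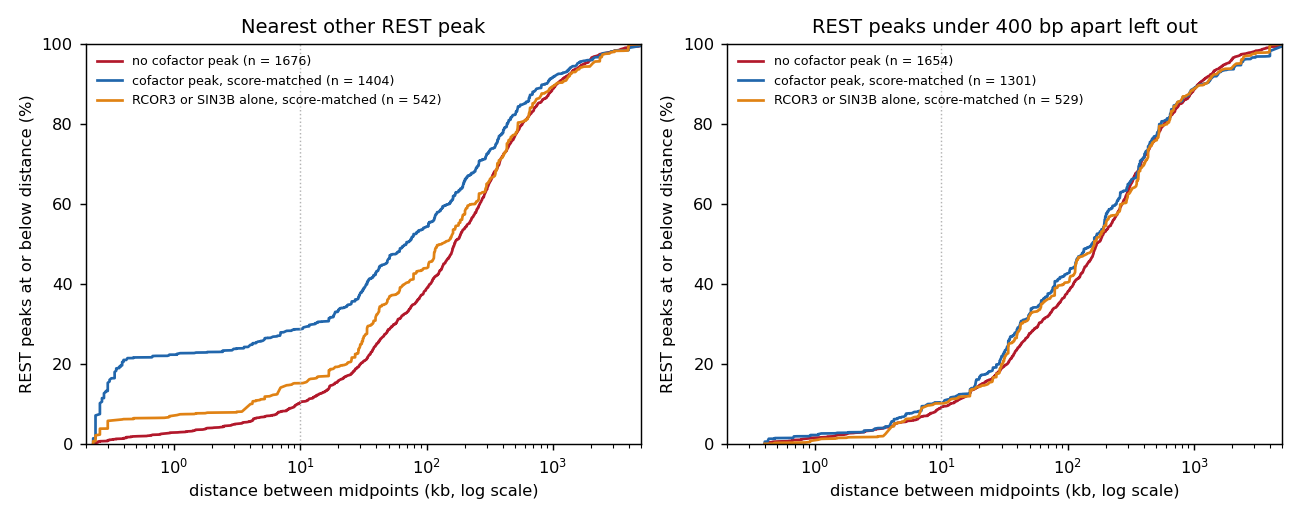
Cumulative percent of REST peaks (vertical axis) by distance to the nearest other REST midpoint (kb, log axis), colours and weights as for the cofactor distances. On the left the blue curve starts with 20.5% of peaks under 400 bp from another REST peak against 1.31% for red, and on the right, with those peaks left out, the curves stand at 9.19% (red) and 10.2% (blue) at 10 kb.

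Close neighbours were common at weak REST peaks with a cofactor, a count on which the selection itself bears. A weak REST peak close to a REST peak with a cofactor can count the same cofactor peak as its own. In deciles 1 to 3, 120 REST peaks had a cofactor, and 41 of them had another REST peak under 400 bp away. That neighbour had a higher score in 41 of 41 cases, by a median of 5.95 times. In the same deciles 804 peaks had no cofactor, of which 13 had such a neighbour, with a higher score in 11 of 13 cases by a median ratio of 2.07. Choosing low scores favours higher neighbours, and over all scores the neighbour was higher for 52 of 103 peaks with a cofactor (median ratio 1.17) and 11 of 22 without (median ratio 1.03). The close neighbour was itself without a cofactor for 0 of these 103 peaks and for 22 of these 22. The 22 close REST peaks without a cofactor formed 11 pairs of members, with scores from 8.89 to 35.36 and a median of 12.15. Leaving out all close REST peaks raised the share without a cofactor in decile 1 from 88.6 to 93.8% (305 of 325, 90.7 to 96.2%) and left decile 7 at 34.5% (100 of 290, 29.0 to 40.3%).

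REST peaks without a cofactor seldom gathered with one another, and other REST peaks did not differ detectably in how often they lay near one. Another member lay within 10 kb of 98 members (5.85%). For the others at matched score the share with a member within 10 kb was 5.16% (difference 0.686, -2.24 to 3.61). When members within 10 kb of the next were joined, 1578 stood alone, 46 groups held 2 and 2 groups held 3. The tighter of the groups of 3, chr11:4360571-4361391, spanned 820 bp, with scores of 11.85, 9.48 and 20.55, and lay 158 kb from its nearest cofactor, RCOR3. The other group of 3, chr17:45989011-46002411, spread over 13.4 kb with scores of 9.48, 19.56 and 10.67, and SIN3B lay 13.8 kb from it. Of the groups of 2, chr1:75146311-75146671 comes first along the genome and held scores of 30.23 and 12.45, with RCOR3 at 11.4 kb. Where a member had any REST peak within 10 kb, the nearest was another member in 91 of 174 cases (52.3%, 44.6 to 59.9%), beside 54.4% members among all REST peaks kept.

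The peaks were narrow, and their widths did not differ detectably from those of other REST peaks of like score. Of the 1676 peaks, 968 (57.8%, 55.4 to 60.1%) had the smallest width of 40 bp and 277 (16.5%, 14.8 to 18.4%) were at least 100 bp wide. Unmatched, 42.2% of them exceeded the median REST width of 40 bp against 26.5% of the other REST peaks. At matched score the others came to 46.2%, and the difference of -3.98 percentage points had an interval that included 0 (-9.62 to 1.66). For widths of at least 100 bp the matched shares were 16.5 and 18.1% (difference -1.60, -6.07 to 2.87). With the stretch of chromosome X kept, both intervals lay below 0, at -6.36 (-11.7 to -0.973) and -5.48 (-10.1 to -0.901), so this reading depends on leaving out its 24 REST peaks. The widest member, chr9:42570091-42570671, singled out after its value was seen, measured 580 bp at a score of 22.23 and lay 380 kb from SIN3B, the nearest cofactor.

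The surroundings of stronger and weaker members were similar by most of these measures. When members were split by score into 3 parts, the nearest cofactor lay at a median of 75.7 kb for scores of 8 to 11.26, 69.4 kb for 11.38 to 17.19 and 104 kb for 17.48 to 87.12. A cofactor within 10 kb was found for 13.7, 16.6 and 13.5% of these, and another REST peak within 10 kb for 8.90, 10.5 and 11.8%. Widths of at least 100 bp made up 14.7, 19.2 and 15.8%. The longest median distance to a cofactor was thus that of the highest-scoring part.

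With all cofactor lists used, no autosome stood clearly apart in its share of REST peaks without a cofactor, given its REST scores. On the 19 autosomes the share ran from 45.5% on chromosome 19 (35 of 77, 34.1 to 57.2%) to 66.7% on chromosome 16 (70 of 105, 56.8 to 75.6%). The number that the score bins of each chromosome would give was close to the observed one, which came to 0.903 to 1.11 times that number, and the share it gives lay inside the observed interval on 19 of 19 autosomes. These intervals are wide, and the overall share of 54.4% also lay inside on 16 of 19. Chromosome 9, which held 1.07% of RCOR3 peaks but 5.91% of the REST peaks kept, had 107 REST peaks without a cofactor among 182 (58.8%, 51.3 to 66.0%) against 96.9 from its scores. Leaving RCOR3 out of the definition kept chromosome 9 at 107 and raised the number from its scores to 107.5, so that RCOR3 took no REST peak out of the set on that chromosome. On chromosome 8 the count was 90 of 164 (54.9%, 46.9 to 62.6%) against 99.7 from its scores. With RCOR3 left out of the definition it was 94 against 109.7, or 0.857 times, the lowest such ratio among the 19 autosomes. No interval was computed for that ratio. Outside the crowded stretch and with all cofactor lists used, chromosome X had 17 of 24 (70.8%, 48.9 to 87.4%) against 15.5.

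**Figure D5:**
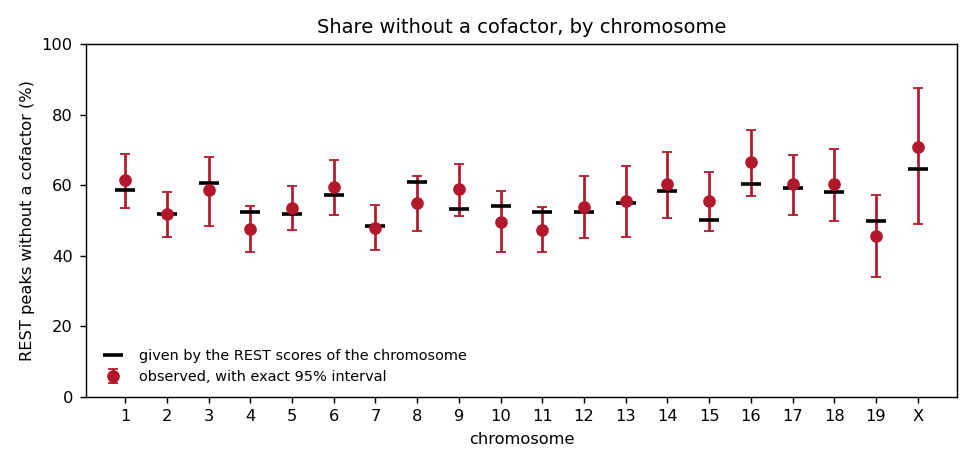
Percent of REST peaks without a cofactor on each chromosome, with exact 95% intervals (red), and the percent given by the REST scores of that chromosome's peaks (black bars). Chromosome Y, with 1 REST peak, is not drawn. The black bar lies inside the interval on 19 of 19 autosomes.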

How the data were processed

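ChIP-seq was done for 6 proteins in E14 cells, 1 library each. Per the labels' protocols, libraries were amplified for 15 cycles, size-selected on a gel at about 250 bp and sequenced on an Illumina Genome Analyzer. The authors deposited 1 peak list per library, made per sample, with 4 columns: chromosome, start, end and a score. The build, mm8, is in the names of the deposited lists. Not given in the sources used here are the aligner, peak caller, control, threshold, depth and the meaning of the deposited score. Starts and ends lie on a 20 bp grid and are printed as deposited, since whether they count from 0 or 1 is not stated.

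Groups were taken from sample titles. Distances are between midpoints on 1 chromosome. The nearest other REST peak and the cofactor peaks were sought in the full lists. REST neighbours under 400 bp away were also left out in an alternative. Shares have exact 95% Clopper-Pearson intervals. For matched comparisons, other REST peaks were weighted to the members' 20 bins of REST score (tied scores share a bin), and the interval of a difference of shares was summed over bins by a normal approximation. The functions were tested on simulated data. Python 3.11.15, NumPy 2.4.6, pandas 2.3.3 and SciPy 1.17.1 were used.

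The members, the comparisons and the alternatives were chosen with earlier results of these data known. Named peaks are the 10 highest-scoring members, the 3 nearest the limit on each side, the 3 farthest from a cofactor (besides the one on chromosome Y, which has none on its chromosome) and the 3 largest groups within 10 kb (ties by chromosome, then start). Alternatives were other distance limits, each cofactor list left out, better-scoring peaks, other score matching, close REST peaks, chromosome 9 or the stretch of chromosome X. The width of 100 bp, the limit of 2 kb, better-scoring REST peaks without close ones and the splits of REST neighbours were added after seeing the data.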

Additional observations from a re-analysis of the deposited data

How the results depend on the processing

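Against all other REST peaks, the difference in cofactor peaks at 400 bp to 10 kb (-10.1 percentage points at matched score) stayed below 0 in every alternative run. Its interval included 0 only with the better-scoring 50% of REST peaks (-4.05, 384 members). It also moved beyond its interval without score matching (-4.81), with the stretch of chromosome X kept (-15.5) and at 50 kb (-17.0). The matching distance ratio ran from 1.75 without score matching to 2.83 with that stretch kept. The difference in REST neighbours within 10 kb (-18.3) was not stable. It was -1.06 without REST peaks under 400 bp from another, -0.761 with a limit of 200 bp and -2.34 with the better-scoring 50% of REST peaks, each with an interval that included 0, and it was -8.71 without score matching and -24.5 with a limit of 5000 bp. It was -0.168 with the better-scoring 50% of REST peaks and no close ones. The ratio of median REST distances (2.40) became 1.70 with the better-scoring 50% of REST peaks (1.65 without close ones), 1.07 without close REST peaks, 1.21 with the limit of 200 bp and 3.64 with that of 5000 bp. The share wider than the median REST peak changed from -3.98 to 15.7 without score matching, and the share at least 100 bp wide from -1.60 to 5.42. With the stretch of chromosome X kept they were -6.36 and -5.48, with intervals below 0. The share of REST peaks without a cofactor was 24.8% (22.7 to 27.1%) rather than 54.4% with the better-scoring 50% of REST peaks, and its count stayed within 1.5 times in the other 12 alternatives. Unless a setting's own construction shows it, the cause was not tested. A share with a cofactor peak at 400 bp to 10 kb was not computed for the limit of 5000 bp, as planned. No paired analysis was possible because each protein has 1 library. Depth is unknown, so undetected cofactors under a list's threshold limit every count here. So do weak REST peaks, which were not checked in another library.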
